A study of Rattus norvegicus with 16 samples.

Results

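Transcripts of 10 genes that mark fat cells were followed in the whole blood of 16 male Sprague-Dawley rats. They are Adipoq, Car3, Cfd, Fabp4, Plin1, Cidec, Lpl, Scd1, Sncg and Gpihbp1, 10 of the 26405 genes listed in at least 1 file, and each was found by its symbol as 1 entry in all 16 libraries. The members were selected on measured values of these same libraries, above all their levels in control 12, so the levels in control 12 are given as a description with no test. The rats were adults of 85 to 90 days, all labelled as saline controls, and are called control 1 to control 16 after the numbers in their labels. Each animal received 4 injections of normal saline at 1 ml/kg, spaced 2 h apart, went without food and water meanwhile, and was killed 3 h after the last injection. Blood was taken by needle from the heart and frozen at once. Globin mRNA was depleted, polyadenylated RNA was sequenced, and a library held between 21466776 and 31189549 estimated counts. The study repeated its experiment at several times over a period of years, and the labels do not say which animal belongs to which repeat. No other treatment was analysed here, so the question is how far the fat cell transcripts vary among animals with the same label.

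White adipocytes store triglyceride in a single large droplet coated with perilipins and CIDE proteins. They take up fatty acids freed from circulating lipoproteins by lipoprotein lipase, which GPIHBP1 holds on the capillary wall, and they secrete adiponectin, leptin and adipsin. Mature adipocytes are cells of solid tissue and do not circulate, whereas several of these genes are also used elsewhere: Car3 in liver and muscle, Scd1 in liver, Cidec in fatty liver, Fabp4 and Lpl in macrophages, Fabp4 and Gpihbp1 in capillary endothelium and Cfd in myeloid cells.

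Counts were divided by DESeq2 size factors, and these normalized counts are the levels given throughout. They are not corrected for gene length, so levels are compared between animals for 1 gene and never between genes. In bulk RNA, fewer cells of a type and less RNA per cell cannot be told apart.

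4 libraries stood apart in the levels of tissue genes. Control 2 held 330250 normalized counts of Alb, the albumin gene of hepatocytes, and was the highest library for 13 of 13 liver genes. Control 8 came next for Alb with 11403, followed by control 7 with 3102 and control 5 with 1793, while control 12 held 12.5 and control 10 held 14.0. Control 10 was the highest library for 9 of 11 cardiac muscle genes, among them Mb, which encodes myoglobin, with 204 against at most 28.0 in any other library. Among all genes, with control 12 left out, control 2 was the highest library for 14.8% and control 10 for 12.0%. Control 12 held 4189 normalized counts of Rag1, a recombinase gene of developing lymphocytes, against at most 23.4 in the others. Values that rest on these libraries are therefore followed by values without them where a summary was made over animals.

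Adipoq, which encodes adiponectin and is made by adipocytes, reached 1042 normalized counts in control 12, from 1417 counts. Control 10 followed with 68.5, from 44 counts. Control 16 held 8.76, control 14 held 7.01, control 11 held 3.74, control 9 held 3.00, control 3 held 2.74, control 1 held 1.74 and control 2 held 0.895. The other 7 libraries held 0, where a count of 0 allows up to 3 counts, or 2.06 to 4.67 normalized counts depending on the library. Adipoq was thus above that limit in 6 libraries, controls 3, 10, 11, 12, 14 and 16, and control 12 alone held 91.5% of the level summed over the 16 libraries. On the log2(normalized count + 1) scale, control 12 lay 9.10 above the median of the other 15 libraries, whose SD was 1.77.

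Promoter sequences are shown for 4 members to set Adipoq and the droplet genes Plin1 and Cidec beside Cfd, whose level followed another pattern across the animals. They are the 250 bases before the first listed start site, 5′ to 3′ on the minus strand, from RefSeq on the build GRCr8, which differs from the rn5 build of the counts. Positions are chr11:91240170-91240419 for Adipoq, chr1:143086149-143086398 for Plin1, chr4:148137116-148137365 for Cidec and chr7:10465497-10465746 for Cfd. Capitals mark matches on either strand to CCAAT or to TTGCNNAA, a form of the site bound by C/EBP factors, which drive adipocyte differentiation. The motifs were chosen after these sequences had been read.
Adipoq: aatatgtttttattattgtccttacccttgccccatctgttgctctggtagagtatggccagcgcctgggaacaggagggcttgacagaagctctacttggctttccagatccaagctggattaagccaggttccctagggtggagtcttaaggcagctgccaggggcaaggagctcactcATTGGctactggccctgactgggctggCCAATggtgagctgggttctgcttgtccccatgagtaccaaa
Plin1: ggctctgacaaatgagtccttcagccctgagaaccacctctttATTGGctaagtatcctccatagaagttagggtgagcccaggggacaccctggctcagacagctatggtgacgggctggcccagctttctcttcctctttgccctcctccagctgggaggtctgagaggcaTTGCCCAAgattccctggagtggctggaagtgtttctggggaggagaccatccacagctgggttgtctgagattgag
Cidec: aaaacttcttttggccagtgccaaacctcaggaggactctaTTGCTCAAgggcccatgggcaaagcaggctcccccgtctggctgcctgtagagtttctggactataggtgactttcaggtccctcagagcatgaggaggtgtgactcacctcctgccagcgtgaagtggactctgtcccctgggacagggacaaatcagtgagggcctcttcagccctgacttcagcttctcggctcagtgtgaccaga
Cfd: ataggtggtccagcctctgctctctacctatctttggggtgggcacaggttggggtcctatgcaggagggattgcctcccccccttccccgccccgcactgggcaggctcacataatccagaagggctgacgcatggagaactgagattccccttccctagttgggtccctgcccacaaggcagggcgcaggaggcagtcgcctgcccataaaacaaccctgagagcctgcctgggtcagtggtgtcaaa

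Promoters were found for 6 of the 10 members (Adipoq, Cfd, Plin1, Cidec, Scd1 and Sncg), Scd1 under the symbol Scd. CCAAT occurred in 2 of the 6, at 69 and 42 bases before the start site of Adipoq and at 207 bases before that of Plin1, and in 34.3% of 27457 rat promoters of the same length. TTGCNNAA occurred in 2 of the 6, at 77 bases before the start site of Plin1 and 209 before that of Cidec, and in 9.2% of all promoters. TATAAA occurred in none of the 6 and in 13.1% of all promoters. A direct repeat that nuclear receptors of the PPAR type can bind, AGGTCA followed after 1 free base by AGGTCA again, occurred in none of the 6 and in 0.0546% of all. The matches overlapped no match of another of the 4 motifs in the sequences shown. Cfd, Scd1 and Sncg had no match to any of the 4 motifs. Of these, Scd1 and Sncg were highest in control 12, as Adipoq, Plin1 and Cidec were. The matches thus did not set Cfd apart from the other members. They describe letters in a window and do not show that a factor was bound.

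The genes of the lipid droplet coat had few counts outside control 12. Plin1, the perilipin that guards stored triglyceride against lipases, held 35.3 normalized counts in control 12 (48 counts), 7.78 in control 10 (5 counts), 1.25 in control 16 and 0 in the other 13 libraries. Cidec, a protein of droplet contact sites that lets droplets fuse, held 265 in control 12, 137 in control 2, 35.8 in control 10 and 23.3 in control 8. In the other 12 libraries Cidec lay between 0 and 7.01. Control 12 was the highest library for both genes, and control 2, with no count of Plin1, was the second highest for Cidec.

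The genes of fatty acid uptake showed a broader background. Fabp4, a cytosolic fatty acid carrier, ranged from 10.3 in control 4 to 1965 in control 12, with a median of 32.5 over the 15 libraries without control 12. Its next libraries were control 10 with 260, control 8 with 183, control 16 with 73.8 and control 14 with 69.1. Lpl, the lipase itself, ranged from 9.99 in control 7 to 625 in control 12, with a median of 23.3 without control 12 and 168 in control 10. Fabp4 and Lpl were detected in all 16 libraries, and control 2 lay near the middle for both, with 27.7 and 19.7. Gpihbp1, the capillary anchor of lipoprotein lipase, held 54.4 in control 12 from 74 counts, 1 count each in controls 2, 8, 10 and 15, and none in the other 11. A single count in 4 libraries is within the limit that a count of 0 allows.

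Scd1, the desaturase that makes monounsaturated fatty acids, was high in 2 libraries. Control 12 held 3366 normalized counts and control 2 held 2597, while the other 14 lay between 170 in control 7 and 520 in control 6. The Scd1 counts were not whole numbers in 16 of 16 libraries, so part of its reads was shared with other entries and its level is uncertain to that extent. Car3, a carbonic anhydrase that is abundant in adipocytes, liver and slow muscle, showed the same 2 high libraries, with 2533 in control 12 and 2419 in control 2. Control 10 held 218 and control 8 held 94.7, and the other 12 libraries lay between 0.871 in control 1 and 61.3 in control 16.

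Sncg, a synuclein made by adipocytes and peripheral neurons, held 360 in control 12, 18.7 in control 10, 6.26 in control 2 and 6.25 in control 16. It held between 0 and 3.00 in the other 12 libraries, 7 of them with no count. Cfd, which encodes adipsin, the serine protease that starts the alternative complement pathway, was the exception among the 10 members. It ranged from 157 in control 6 to 1323 in control 9, with a mean of 763 ± 409 (SD, n = 16), and control 12 stood at rank 7 with 987. The libraries above control 12 for Cfd were controls 9, 8, 7, 1, 15 and 11, and controls 2 and 10 held 326 and 416. Its log2 value in control 12 lay 0.66 above the median of the other 15, within their SD of 0.96.

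**Figure D1:**
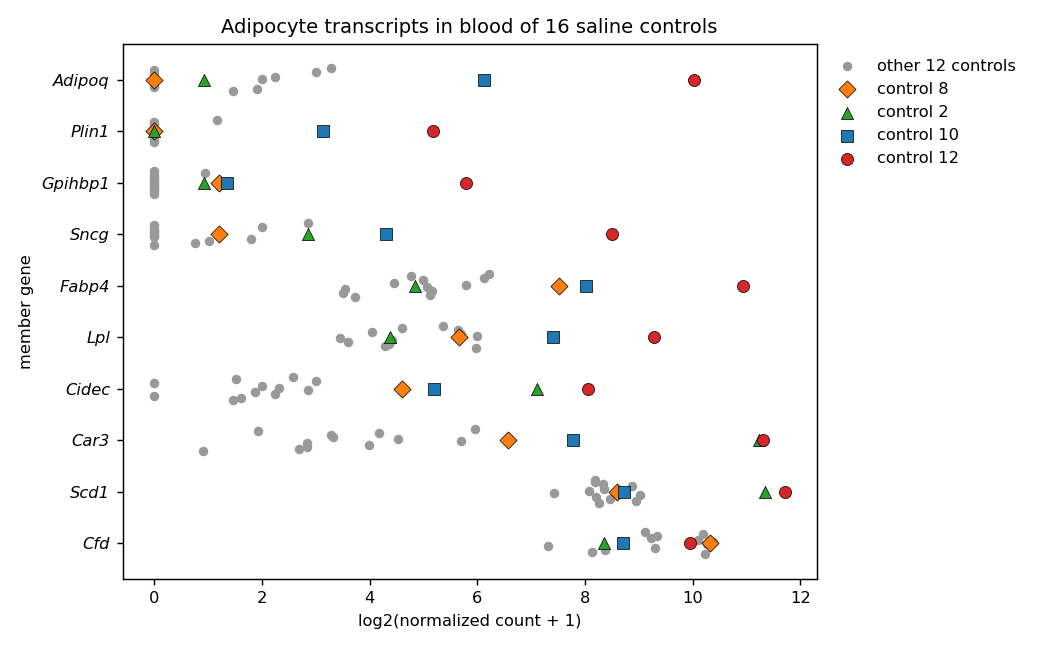
The 10 members in rows and log2(normalized count + 1) on the horizontal axis, with 1 point per library, controls 2, 8, 10 and 12 marked by shape and the other 12 in grey. Control 12 is the highest point for 9 genes, control 2 comes close to it for Car3 and Scd1, and for Cfd control 12 lies inside the range of the others.

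Control 12 was the highest library for 9 of the 10 members. Of 15497 genes whose mean was 1 or more, control 12 was the highest library for 9.91%. It stood at least 4 times above the next library for 5 members, namely Adipoq (15.2 times), Fabp4 (7.56), Plin1 (4.54), Sncg (19.3) and Gpihbp1, against 0.523% of those genes. For Lpl it stood 3.72 times above control 10, and for Cidec, Scd1 and Car3 it stood 1.93, 1.30 and 1.05 times above control 2. Since the members were chosen by their levels in control 12, nothing is read from these counts. The log2 differences of control 12 from the median of the other libraries, with the SD of the others, were 7.32 (2.61) for Car3, 5.88 (1.32) for Fabp4, 5.18 (0.84) for Plin1 and 5.82 (1.88) for Cidec. They were 4.69 (1.08) for Lpl, 3.36 (0.86) for Scd1, 7.74 (1.37) for Sncg and 5.79 (0.52) for Gpihbp1, where the values for Plin1 and Gpihbp1 depend on the 1 added before the logarithm because most libraries were at 0.

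Without control 12, the highest of the remaining 15 libraries was control 10 for 6 members (Adipoq, Fabp4, Plin1, Lpl, Sncg and Gpihbp1), control 2 for 3 (Car3, Cidec and Scd1) and control 9 for Cfd. Of 15408 genes whose mean over those 15 libraries was 1 or more, control 10 was the highest for 12.0% and control 2 for 14.8%. In control 10 the 6 genes included Gpihbp1 with 1 count and Plin1 with 5 counts, so the order rests on Adipoq, Fabp4, Lpl and Sncg. Adipoq, Fabp4, Lpl and Sncg were thus second highest in the library with the most cardiac transcripts, and Car3, Cidec and Scd1 in the library with the most liver transcripts, while Cfd had control 10 at rank 12 and control 2 at rank 14.

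The 2 patterns were followed with the level above the median of the 13 libraries other than controls 2, 10 and 12. For Adipoq, with 44 counts in control 10, this excess was 15.2 times larger in control 12 than in control 10, for Sncg 19.3 times, for Car3 12.1 times, for Fabp4 8.50 times and for Cidec 7.98 times. It was 4.54 times larger for Plin1 and 4.16 times larger for Lpl, which had 108 counts in control 10. For Scd1 the factor was 30.1, with an excess of 101 in control 10, close to the SD of 98.4 among the 13 libraries. The members thus did not stand in 1 ratio between the libraries of controls 12 and 10. Between controls 12 and 2 the factor was 1.05 for Car3, 1.34 for Scd1 and 1.95 for Cidec, whereas Fabp4 and Lpl lay below the median of the 13 libraries in control 2, Plin1 had no count there and Adipoq had 1 count.

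**Figure D2:**
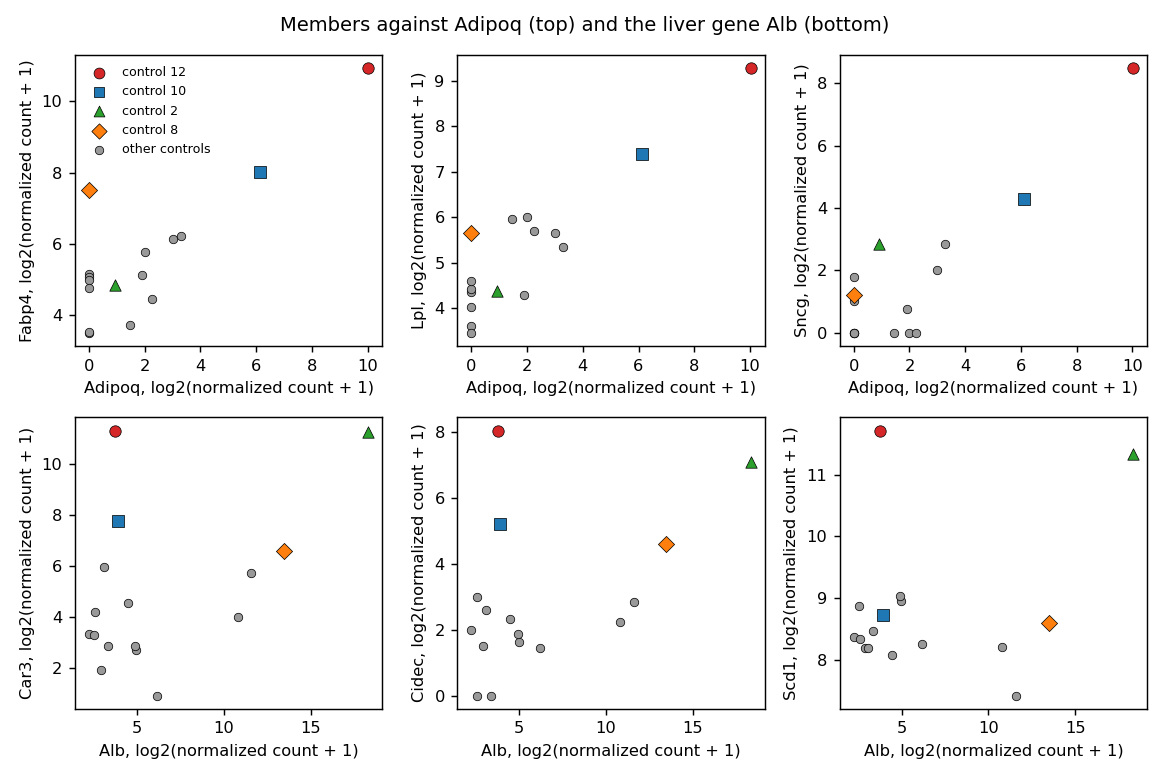
Fabp4, Lpl and Sncg against Adipoq (upper panels) and Car3, Cidec and Scd1 against Alb (lower panels), all as log2(normalized count + 1), with 1 point per library and controls 2, 8, 10 and 12 marked. Control 12 lies at the top of Adipoq with 12.5 normalized counts of Alb, and control 2 lies at the top of Alb with 0.895 of Adipoq.

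Across the 16 libraries the log2 levels of the other members had these Pearson correlations with Adipoq, given as a description. They were 0.93 for Plin1, 0.90 for Lpl, 0.88 for Sncg, 0.83 for Fabp4, 0.79 for Gpihbp1, 0.65 for Cidec, 0.58 for Car3, 0.53 for Scd1 and 0.09 for Cfd. Much of this rested on 2 libraries: over the 14 without controls 10 and 12, r was 0.63 for Lpl, 0.52 for Plin1, 0.36 for Sncg, 0.29 for Fabp4 and 0.11 for Cidec. It was 0.05 for Car3, -0.06 for Scd1, 0.08 for Cfd and -0.34 for Gpihbp1, where most levels are at or near 0. In those 14 libraries Adipoq had at most 7 counts. Plin1 had 1 count there, in control 16, and 0 in the other 13, so its r rests on that count. Against Alb over the 15 libraries without control 12, r was highest for Cidec (0.68), Car3 (0.66) and Scd1 (0.49), and it was -0.35 for Adipoq, -0.31 for Lpl and -0.20 for Plin1. Without control 2 as well, the library with by far the most Alb, r over 14 libraries was 0.41 for Cidec and 0.33 for Car3, and it turned to -0.33 for Scd1. Within a library all these levels share 1 size factor, and no p is given for them.

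As a share of all counts, the 8 members other than Cfd and Scd1 made up 0.0342% of the counts of control 12 (95% Wilson interval 0.0335 to 0.0349%), or 342 in 1000000 counts. On that scale control 2 followed with 93.6, mostly Car3 with 2703 of 2918 counts, and control 10 with 19.9. Control 8 held 9.93, control 16 held 6.72, control 9 held 6.37 and control 14 held 6.06. The other 9 libraries lay between 1.68 in control 4 and 3.93 in control 11. In control 12 those 8 genes had 9355 counts, while in control 4 they had 36. The intervals cover counting error only. Cfd and Scd1 were set aside because all 16 libraries held them at a broad level, and the order depends on that choice. With all 10 members, control 12 held 559 in 1000000 counts, control 2 held 198, and the median over the 16 libraries was 47.5. On that sum control 10, with 41.3, lay below the median.

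**Figure D3:**
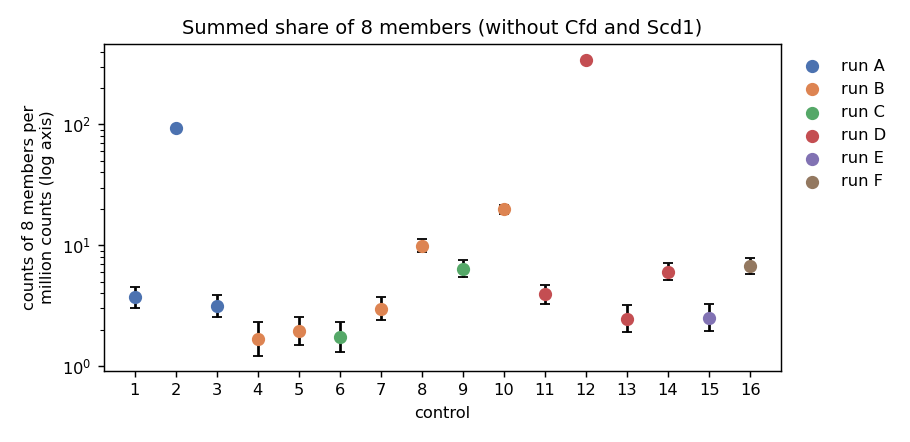
Counts of the 8 members other than Cfd and Scd1 per 1000000 counts in each library on a log axis, with 95% Wilson intervals for counting error and colours for the run, a code in the names of the deposited files. Control 12 stands at 342, control 2 at 93.6 and control 10 at 19.9, and the other 13 libraries lie between 1.68 and 9.93.

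Without controls 2, 10 and 12, the coefficient of variation was 28.5% for Scd1, 52.1% for Cfd, 58.8% for Lpl, 101% for Fabp4 and 123% for Car3. With control 8 left out as well, it was 29.9% for Scd1, 53.9% for Cfd, 62.0% for Lpl, 62.9% for Fabp4 and 113% for Car3. The spread of Fabp4 among the 13 libraries thus rested in good part on control 8, and that of Car3 did not. These coefficients describe genes that were chosen for their values in these libraries.

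Other genes of fat were read from 5 lists of 37 genes, of which 36 were listed in the files. Control 12 was the highest library for 8 of the 36, control 10 for 4 and control 2 for 7. Among all genes with a mean of 1 or more it was the highest for 9.91%, the share to set beside the counts of this and the later lists. For controls 10 and 2 the share was made only without control 12, and was 12.0% and 14.8%. The summed levels of 4 of the 5 lists lay inside the range of the 13 libraries other than controls 2, 10 and 12. In control 12 the droplet and lipolysis list summed to 4140 (median of the 13, 4774), lipid synthesis to 8652 (14085), uptake and transport to 7272 (7130) and transcription factors to 1096 (2260). Single genes with a high level in all libraries made up much of these sums: Plin2 2062, Dgat2 3153, Cd36 7011 and Cebpd 705, in the same order of lists. The sums therefore cannot show whether genes of low level in those lists were raised in control 12. The secreted proteins summed to 844 in control 12 against a median of 10.6 and a highest value of 767 in the 13, and to 10964 in control 2. Among secreted proteins, Lep, the satiety hormone leptin made by white fat, held 60.3 normalized counts in control 12, 6.25 in control 16 and 0 in the other 14 libraries. Nnat, a membrane proteolipid of neurons and adipocytes, held 245 in control 12 and at most 14.0, in control 10, elsewhere. Aqp7, the glycerol channel of adipocytes, held 66.2 in control 12, 6.23 in control 10 and at most 1.03 in the others. Lep, Nnat and Aqp7 had the same high library as Adipoq. Each of them met a rule that named list genes with a library at least 10 times the median of the other 15. Nothing is read from the shared library.

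Retn, which encodes the adipocyte hormone resistin of rodents, did not share that order. Its highest library was control 14 with 765, followed by control 12 with 171 and control 8 with 19.5. Control 14 held 7.01 of Adipoq and no count of Plin1, so its Retn level stood apart from the members. Rbp4, the carrier of retinol, held 9590 in control 2, 249 in control 8 and 246 in control 12. Agt, which encodes angiotensinogen, held 1360 in control 2, 179 in control 8 and 121 in control 12. Both are made by liver as well as fat. Control 10 held 21.8 of Rbp4 and 15.6 of Agt, with an Alb level close to that of control 12.

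In lipid synthesis, 4 of 11 genes were highest in control 2 and none in control 12. Gpd1, which makes the glycerol backbone of triglyceride, held 634 in control 2, 207 in control 12 and 35.8 in control 10 against a median of 4.80 in the other 13 libraries. Thrsp, a lipogenic regulator of liver and fat, held 2800, 656 and 45.1 in the same 3 libraries against a median of 2.61. Pck1, the enzyme of glyceroneogenesis and gluconeogenesis, held 2797, 127 and 15.6 against a median of 2.06. Control 12 was thus the second highest library for Gpd1, Thrsp and Pck1. Dgat2, Me1, Acsl1 and Acly, the 4 genes of that list with the highest means, had levels in control 12 inside the range of the 13 libraries for Dgat2 (3153 in a range of 869 to 32905), Acsl1 (1278 in 906 to 2660) and Acly (1337 in 671 to 1752). Me1, with 790 in control 12, lay below the range of 928 to 4070.

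Droplet and uptake genes were divided. Of the 8 droplet and lipolysis genes 3 were highest in control 12, all named after their values were seen. Lipe, the hormone-sensitive lipase, held 94.2 against at most 53.8 elsewhere, Plin4 held 10.3 and Cidea 15.4, each against at most 6.23. Besides Aqp7, the uptake gene Adrb3, a receptor for catecholamines on adipocytes, also named after its values were seen, held 22.8 against at most 2.48. The 4 droplet genes and 3 uptake genes with the highest means did not share this order. Plin2, the droplet coat of most cells, held 2062 in control 12 in a range of 853 to 4584. Pnpla2, the first lipase of triglyceride breakdown, held 850 in a range of 821 to 2258, and Abhd5, its coactivator, held 359 in a range of 259 to 681. G0s2, its inhibitor, held 491 in a range of 186 to 651. Cd36, the fatty acid translocase, held 7011 in control 12 in a range of 4571 to 17143. Slc2a4, the insulin-responsive glucose transporter, held 124 in a range of 79.6 to 363, and the insulin receptor gene Insr held 48.5 in a range of 26.0 to 90.1. For these 7 genes control 12 lay inside the range of the 13 libraries.

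Of the transcription factor list, control 12 was the highest library for 1 of 6, Pparg, the master regulator of adipocyte differentiation, chosen here after its value was seen. It held 89.0 in control 12 against 72.7 in control 3 and 45.1 in control 10. Cebpd, Srebf1 and Cebpa, with 705, 246 and 45.6 in control 12, lay inside the range of the 13 libraries, and Klf15, a factor of liver, muscle and fat, held 142 in control 2 and 7.36 in control 12.

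Brown fat genes were low throughout. 6 of 8 were listed in the files, and none of the 6 was highest in control 12. Ucp1, the uncoupling protein that defines brown adipocytes, held at most 5.23 normalized counts, in control 1, and 2.94 in control 12. Elovl3, named after its values were seen, had no count in any library. The summed level of the brown fat list was 50.8 in control 12, 68.5 in control 10, 68.0 in control 2 and between 18.7 and 61.9 in the other 13, with Cpt1b, the muscle carnitine palmitoyltransferase, as the main contributor in control 12 with 44.1.

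Marker lists of other tissues were summed in the same libraries. Liver genes summed to 23.5 in control 12, 68.5 in control 10 and 496940 in control 2, with 16.4 to 25861 in the other 13, and Apoc3, Apoh, Cps1, Fabp1 and Tat had no count in control 12. In the library where Adipoq was highest the liver list was thus near its lowest level, and in control 2, where Car3, Cidec and Scd1 were second highest, it was at its highest. Cardiac genes summed to 550 in control 10, 94.9 in control 2, 75.8 in control 12 and 0.884 to 62.0 in the other 13, with Actc1, the cardiac actin, at 129 in control 10 and 14.0 in control 12. Mb, Tnnt2 and Tnni3 lay above the range of the 13 libraries in control 12, with 28.0, 9.56 and 8.83. The other cardiac genes lay inside it. Nppa, Nppb and Ryr2 had no count in control 12, but held at most 2.06, 3.11 and 9.34 in any library. Tnnt2, Tnni3, Nppa, Nppb and Ryr2 were named after their values were seen. The part of the heart and liver transcripts in the members' levels in controls 10 and 2 was not tested.

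Early lymphoid and thymus genes were highest in control 12 for 7 of 9 (9.91% of all genes), with a summed level of 8680 against 1386 in control 10, 1366 in control 2 and 691 to 1715 in the others. Besides Rag1, its partner Rag2 held 421 in control 12 and at most 7.43 elsewhere, and Dntt, which adds bases at receptor gene joints, held 1101 and at most 32.5. Ptcra, the surrogate receptor chain of thymocytes, held 58.8 and at most 2.50, while Psmb11, a proteasome subunit of the thymic cortex epithelium named after its values were seen, held 0.736. The 7 early lymphoid genes and 9 of the 10 members thus had the same highest library.

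Mesothelium genes were highest in control 12 for 5 of 7 (9.91% of all genes), with a summed level of 508 against 623 in control 2, 232 in control 10 and 13.7 to 418 in the others. The keratin genes Krt8 and Krt18 made up most of the sum in control 2, with 209 and 402, and in control 8, with 136 and 192. In control 2, Msln, Upk3b, Lrrn4 and Wt1 held only 7.16, 0, 0.895 and 1.79. Msln, the mesothelin gene of the lining of the chest and belly cavities, held 285 in control 12, 123 in control 10 and 67.4 in control 8, and Krt19 held 61.8 and 10.9 in controls 12 and 10. Fibroblast and preadipocyte genes summed to 2124 in control 12, 2153 in control 10, 1006 in control 2 and 230 to 775 in the others. 6 of those 10 genes were highest in control 10 and 1, the fibrillar collagen gene Col3a1, in control 12, with 1004 against 654. Dcn, the matrix proteoglycan decorin, held 388 in control 10 and 341 in control 12, and Dpt, another matrix gene, held 519 in control 2.

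Endothelium genes were highest in control 12 for 3 of 11 (9.91% of all genes), and their sum, 16201, lay inside the range of 14374 to 32696. Of that sum 14403 was Aqp1, a water channel that red cell precursors also use. Emcn, a sialomucin of capillaries and veins, held 66.2 in control 12, 23.3 in control 2 and 9.34 in control 10. Cdh5 and Cldn5, named after their values were seen, were also highest in control 12, with 9.56 and 3.68. Their next libraries held 8.95 and 2.50. The endothelium genes of highest mean were not highest in control 12. Vwf, with 533 in control 12, lay below the 761 to 4231 of the 13 libraries. Pecam1 (873 in a range of 536 to 1333) and Tie1 (196 in 105 to 267) lay inside. Skeletal muscle genes were highest in control 12 for none of the 11 with a count, and their sum of 254 lay below the 260 to 473 of the 13 libraries. Lung epithelium genes were highest in control 12 for none of 5, with a sum of 125 in a range of 44.2 to 217, and Scgb1a1, a secreted protein of airway club cells, held 51.2 in control 7 and 47.1 in control 12. Control 12 thus had the highest level of 9 members and of several early lymphoid and mesothelial genes, and the part of each list in the members' levels was not tested.

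**Figure D4:**
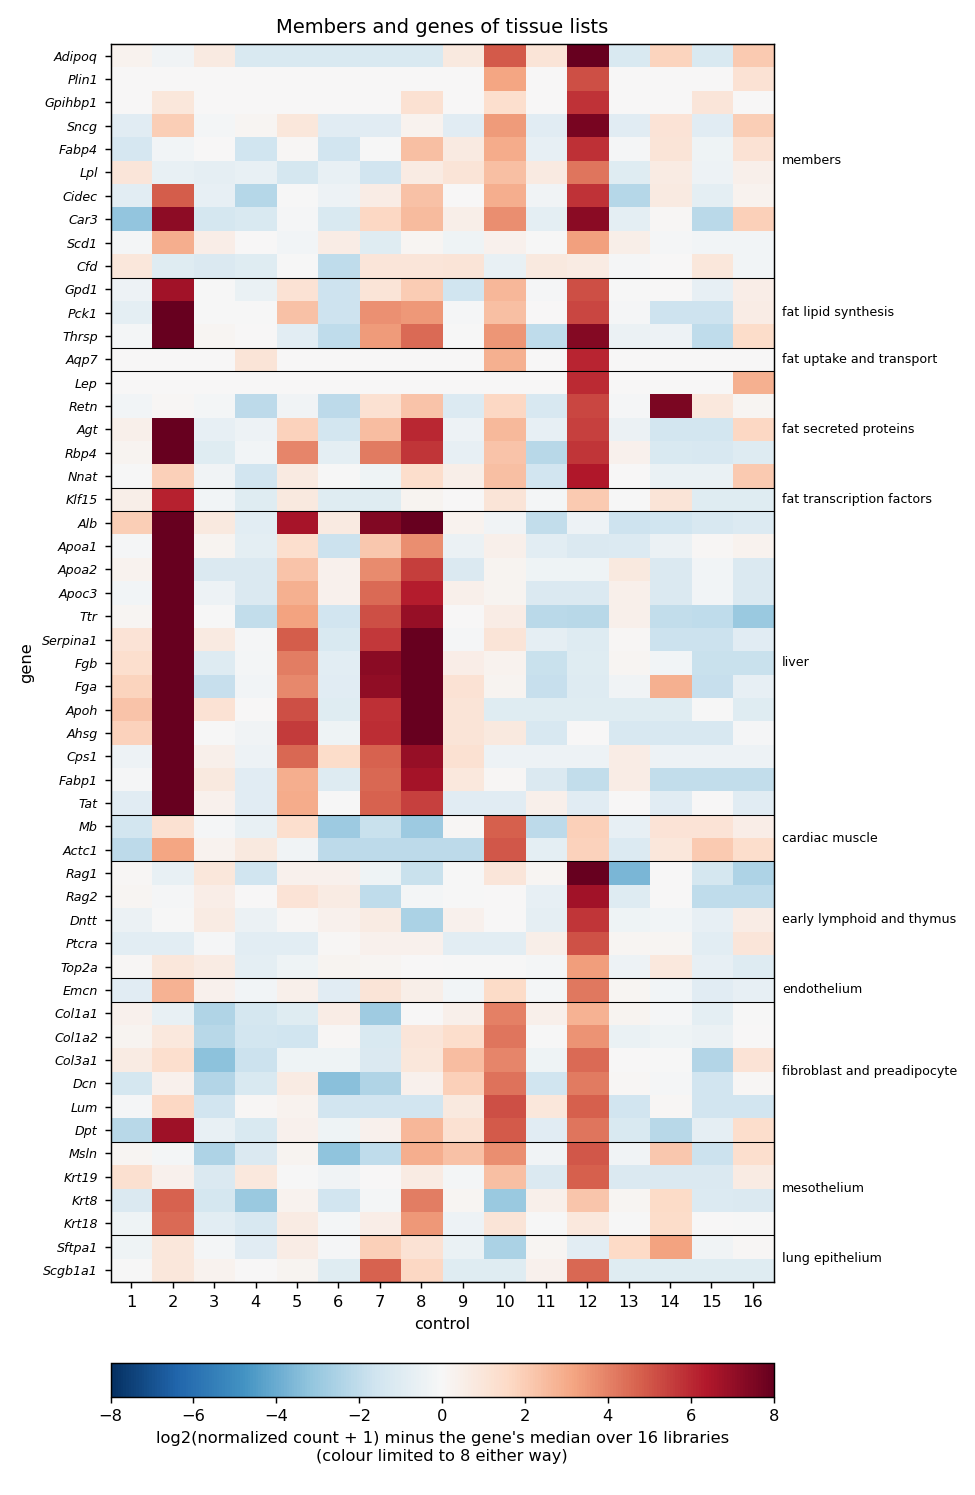
The 10 members and the list genes named for a high library (rows, grouped by list) in the 16 libraries (columns), with colour for log2(normalized count + 1) minus the median of the gene over all libraries, limited to 8 either way. The liver genes are darkest red in control 2, Mb and Actc1 in control 10, and Rag1, Adipoq and Lep in control 12.

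The genes whose log2 levels were most like those of Adipoq over the 16 libraries, among 11673 with a symbol and a mean of at least 10, were Sparc (r = 0.89), S100b (0.88), Olfml3 (0.83), Ns5atp9 (0.83), Igfbp5 (0.83), Nbl1 (0.83), Lamb1 (0.82), Cav1 (0.82), Cacnb2 (0.81) and Bcam (0.80). Sparc, a collagen-binding matrix protein, held 1556 in control 12, 895 in control 10, 221 in control 2 and a median of 63.5 in the other 13. S100b, a calcium-binding protein of glia and adipocytes, held 215, 31.1 and 0.895 in those libraries, with a median of 0.964 in the others. Cav1, the caveolar coat protein of adipocytes and endothelium, held 743, 235 and 66.2 against at most 130 in the others. Igfbp5, an IGF-binding protein, held 296 in control 12 and 255 in control 10. Of the 10, 9 were highest in control 12, and Nbl1 was highest in control 10, with 63.8 against 53.0. Control 12 was the highest library for 9.91% of genes with a mean of 1 or more. Adipoq was itself far highest in control 12, so genes picked for likeness to it tend to share that library. Nothing is read from this count.

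Without control 12 the 10 most like genes were Sparc (0.79), Nbl1 (0.74), Igfbp5 (0.74), Fbn1 (0.72), Sod3 (0.72), Lum (0.69), Ltbp4 (0.69), S100b (0.69), Npl (0.69) and Fam86a (0.69), of which Sparc, Nbl1, Igfbp5 and S100b were also in the first list. Fbn1 and Ltbp4 encode proteins of elastic microfibrils and Lum encodes a collagen-binding proteoglycan. In this order Adipoq was read from at most 44 counts, so the likeness describes mainly control 10 against the other libraries.

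The labels give 1 group and do not tie an animal to a repeat of the experiment. The libraries can be split by a code in the names of the deposited files, whose meaning is not stated and which is called a run here. Repeats that differ in date and runs cannot be told apart with these labels. Run A held controls 1 to 3, run B controls 4, 5, 7, 8 and 10, run D controls 11 to 14, and the remaining runs held 1 or 2 libraries. The members were compared between runs A, B and D with edgeR's quasi-likelihood test over 12952 genes, which 6 members passed by their counts (Car3, Cfd, Fabp4, Cidec, Lpl and Scd1). Adipoq, Plin1, Sncg and Gpihbp1 did not pass and were not tested.

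edgeR called 0 of the 6 members in each of the 3 comparisons at an adjusted p under 0.05. Of all genes it called 0% between A and B, 0% between A and D and 2.3% between B and D. At an unadjusted p under 0.05 the shares were 13.5%, 5.41% and 11.3% of all genes, and DESeq2 called 4.32%, 0.0567% and 4.93%. At that unadjusted level edgeR found 1 member in each comparison, and DESeq2, which gave an adjusted p for 4 members, called 0. Between A and B the log2 fold change of Scd1 was -1.81 ± 0.82 (SE), with an adjusted p of 0.37 from edgeR, and without control 2, which belongs to run A, it was -0.33 ± 0.80. The 3 comparisons share 1 estimate of the spread, so control 12 of run D also entered the test between A and B. Without control 12 that SE was 0.57 for Scd1 and 0.96 for Fabp4, against 0.82 and 1.52 with it. For Cfd it was 0.58 against 0.56. edgeR called 0 of the 6 members between A and B without control 12 as well.

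Run D holds control 12, whose values chose the members, so the size of its differences is given as a description. Fabp4 was 4.37 ± 1.71 higher in D than in A on the log2 scale and 0.71 ± 1.01 without control 12. Scd1 was 1.79 ± 0.78 higher in D than in B and 0.23 ± 0.58 without control 12. In run D, Adipoq held 0 in control 13, 3.74 in control 11, 7.01 in control 14 and 1042 in control 12, and Fabp4 held 30.8, 20.9, 69.1 and 1965 in the same order. The high Adipoq and Fabp4 of run D thus came from 1 of its 4 libraries. With controls 2, 10 and 12 left out together, Cidec no longer passed the filter. edgeR then called 0 of the 5 members tested in each comparison. The log2 fold change of Car3 from A to B was 3.57 ± 1.16 there (adjusted p 0.43 from edgeR). With controls 2, 10 and 12 kept it was -3.41 ± 2.07. A p that misses the threshold does not show that the runs were alike for these genes.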

How the data were processed

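Whole blood RNA of 16 saline control rats was sequenced after globin depletion with a stranded, polyA-selected kit. Per the labels, the authors processed reads with CASAVA 1.8.2, aligned them with Bowtie 0.12.9 to rn5 and made estimated counts per gene with RSEM 1.2.0, which divides reads shared between transcripts. The study's methods name no strand option for the alignment or for RSEM. The deposited estimated counts were not normalized, and 21.9% to 28.4% of a library's values were not whole. They were rounded here. Files listed different numbers of genes by run code, for an unstated reason, so levels and tests used only the 18031 genes common to all files. Library totals, and the shares of all counts divided by them, covered every gene that a file listed.

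Size factors came from DESeq2 1.42.0, and the pseudocount on the log2 scale was 1. Runs A, B and D were compared with the quasi-likelihood test of edgeR 4.0.16 in R 4.3.3, with TMM scaling, edgeR's filter on low counts and Benjamini-Hochberg adjustment over all genes tested. The SE of an edgeR log2 fold change was derived as its absolute value divided by the square root of the F statistic. The test was checked on simulated counts. Alternatives were DESeq2, other scalings, no filter, all 16 libraries, another pseudocount, unrounded counts and leaving out libraries. Leaving out controls 2, 10 and 12 together, controls 2 and 12, or control 8 as well, and the highest library without control 12, were added after seeing the data. The members and gene lists were chosen with earlier results of these data known. Genes named were the members, up to 4 genes of highest mean per list, list genes with at least 50 normalized counts in a library that was at least 10 times the median of the other 15, and the 10 genes most like Adipoq with and without control 12. Replicates are separate animals. Every pair of libraries differed by more than sampling noise.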

Additional observations from a re-analysis of the deposited data

How the results depend on the processing

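No member was called between runs in any of the 54 alternatives, each 1 comparison under 1 setting. They tested from 4 to 10 of the members. The comparisons of a setting shared 1 fit, and the settings shared most libraries, so the 54 are not independent. Of 303 alternatives, 278 left the result within its limits, 25 moved it and 0 reversed it. Counts and shares of genes called cannot change sign, and the members' fold changes between runs were not among the 303. Some of those log2 fold changes did change sign. Between A and B, Car3 went from -3.41 to 4.41 and Cidec from -1.79 to 2.70 without control 2. Between B and D, Fabp4 went from 2.33 to -1.35 without control 12. Control 12 stayed the highest library for 9 of the 10 members under every scaling and without rounding. With a pseudocount of 0.5 the log2 difference of control 12 was 6.16 for Plin1 and 6.78 for Gpihbp1, by construction, since most libraries were at 0. Of the 10 genes most like Adipoq, 4 were shared without control 12 and 1 with Spearman's rho.

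The share of all genes called moved with the settings. Between A and B it was 0% with edgeR and 4.32% with DESeq2, 0.00773% (1 gene) with controls 2, 10 and 12 left out, and 0% to 3.93% on leaving out 1 library (0.00749% without control 1, 0.00759% without control 2, 3.93% without control 4). Between A and D it was 0%, 0.0567% with DESeq2, 0.00703% (1 gene) with all 16 libraries in the fit, and 0% to 0.015% on leaving out 1 library (0.015% without control 1, 0.00759% without control 2, 0.00775% without control 7). Between B and D it was 2.3%, 4.93% with DESeq2, 0.0463% with total count scaling, 0.00773% with controls 2, 10 and 12 left out, and 0.0155% to 5.44% on leaving out 1 library (5.44% without control 4, 0.0233% without 5, 0.737% without 7, 0.457% without 10, 0.0156% without 11, 0.211% without 12, 0.0232% without 13 and 0.0155% without 14). The cause was not tested. Total count scaling moved the median log2 fold change of all genes to -0.50 between A and B and 0.53 between B and D. No paired analysis was possible because the labels give 1 group.

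Depth limits the low members: 3 counts were 2.06 to 4.67 normalized counts, so Plin1, Gpihbp1, Sncg and Adipoq cannot be ranked among most libraries.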
